A study of Mus musculus with 137 samples.

Results

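The Trim43 family of the mouse was followed in single embryos at the 2-cell stage. It consists of 3 genes, Trim43a, Trim43b and Trim43c, chosen by name out of 36053 genes in the count table because they fell far in SR1848 against DMSO. Levels in those groups are therefore given as a description. The polyadenylated RNA of each embryo was read by SmartSeq2 with oligo-dT priming, and the libraries, 1 embryo each, fall into 3 groups over 2 experiments. Embryos labelled SR1848_NR5A2OE (67 libraries, 27 in experiment 1 and 40 in experiment 2) were given 10 µM SR1848 and 500 ng/µl NR5A2 mRNA. Embryos labelled SR1848 (41 libraries, 17 and 24) were given 10 µM SR1848 alone, and embryos labelled DMSO (29 libraries, 19 and 10) were given 0.1% DMSO, the solvent. All embryos were of the strain B6129F1, were collected as zygotes at 5 hours after fertilization and were treated in KSOM medium from 6 hours on. The labels do not say how embryos were shared out among parents, so every p measures the spread between embryos.

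TRIM proteins carry a RING finger, a B-box and a coiled coil, and many of them are ubiquitin ligases that attach ubiquitin to other proteins. Trim43 genes are silent in most adult tissues and are switched on when the embryo begins to transcribe its own genome, which in the mouse happens mainly at the 2-cell stage; in human cells TRIM43 is a target of the embryonic transcription factor DUX4. NR5A2 is an orphan nuclear receptor of the early embryo that binds DNA, and SR1848 is a small molecule used to inhibit it. The study asks, by its title, how Nr5a2 switches on embryonic transcription.

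The 3 genes lie in 1 stretch of 511945 bases on mouse chromosome 9 (GENCODE M21, build GRCm38). Trim43a (ENSMUSG00000090693) occupies chr9:88580891-88588819 on the plus strand, Trim43c (ENSMUSG00000067399) chr9:88839164-88848190 on the plus strand and Trim43b (ENSMUSG00000079162) chr9:89084624-89092835 on the minus strand. The coding sequences are near copies: Trim43a and Trim43b share 98.4% of 1335 aligned bases, Trim43b and Trim43c 97.8% of 1335, and Trim43a and Trim43c 96.9% of 1338. Of the stretches of 31 bases found in their transcripts, 63.3% for Trim43a, 60.9% for Trim43b and 58.6% for Trim43c occur in another member too. A read from such a stretch cannot be placed on 1 gene, so each member's value is an estimate and the family sum is given beside it. The coding stretch of 120 bases in which the copies differ most is shown here because reads that tell the copies apart come from such places. It runs from coding base 69 to 188 of each gene, counted from 1 at the start codon, and the capitals mark the 10 positions that are not the same in all 3 genes. At most of these positions Trim43c alone differs, so the window does little to tell Trim43a from Trim43b.
Trim43a, chr9:88582106-88582225, plus strand: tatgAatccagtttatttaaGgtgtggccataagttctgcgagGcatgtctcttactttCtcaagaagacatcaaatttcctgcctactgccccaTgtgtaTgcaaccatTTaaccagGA
Trim43b, chr9:89091491-89091610, minus strand: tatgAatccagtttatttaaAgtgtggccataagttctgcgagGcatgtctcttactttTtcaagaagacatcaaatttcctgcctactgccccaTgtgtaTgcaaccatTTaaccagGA
Trim43c, chr9:88840371-88840490, plus strand: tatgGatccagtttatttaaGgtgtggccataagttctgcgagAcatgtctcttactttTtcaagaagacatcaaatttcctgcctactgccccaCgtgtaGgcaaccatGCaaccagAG

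A promoter sequence was at hand for 1 of the 3 members, Trim43a, and is shown because the study concerns a factor that binds DNA. It holds 250 bases before and 50 bases after the start of the gene (RefSeq, build GRCm38.p6).
Trim43a promoter, chr9:88580641-88580940, plus strand: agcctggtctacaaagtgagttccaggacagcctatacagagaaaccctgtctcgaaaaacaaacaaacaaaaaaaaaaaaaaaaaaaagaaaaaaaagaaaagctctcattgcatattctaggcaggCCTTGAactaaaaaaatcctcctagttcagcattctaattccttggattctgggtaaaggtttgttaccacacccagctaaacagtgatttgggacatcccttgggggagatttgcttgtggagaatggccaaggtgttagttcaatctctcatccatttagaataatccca
The capitals mark the 1 match to the core of the NR5A motif, TCAAGG, which was searched for on both strands and is found here on the minus strand; it lies 122 bases before the start, and 14.43% of 32544 promoters of the same length hold that core. The longer NR5A site TCAAGGNCA, which contains that core and is found in 1.60% of promoters, has no match in this window. These matches describe letters in the window and do not show binding.

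Library totals ran from 100513 to 9250466 estimated counts, and 7 libraries were low in total or in detected genes (DMSO 6, 13 and 16, SR1848 8 and SR1848_NR5A2OE 22 of experiment 1, and SR1848_NR5A2OE 27 and 40 of experiment 2). GFP, which the table lists as its own entries, is not named in the labels. In experiment 1 its median was 3020 CPM in SR1848_NR5A2OE, 0 in SR1848 and 0.201 in DMSO, with low libraries kept. In experiment 2, 16 libraries, taken as 2 sets of 8, went against this order of the labels in GFP, and against their labels in Nr5a2. SR1848_NR5A2OE 1 to 8 had at most 0.456 CPM, a library's counts scaled to a common total, of GFP and 82.1 to 156 CPM of Nr5a2, while DMSO 1 to 8 had 47.7 to 7179 CPM of GFP and 88.9 to 5474 CPM of Nr5a2. The 18 other DMSO libraries that were not low had at most 0.771 CPM of GFP and 84.4 to 191 CPM of Nr5a2. The lowest Nr5a2 of DMSO 1 to 8 lay within that range, so not each of the 16 went against its label in Nr5a2. Results are therefore given with these 16 libraries as labelled and without them. Markers of the 2-cell embryo (Zscan4d, Zscan4c, Zfp352, Usp17lc and Tdpoz4, 5 of 5 with a median above 0 in each group) were present in the other 114 libraries. Their summed level had medians of 412 CPM (0.622 to 2627) in 56 libraries labelled SR1848_NR5A2OE, 94.8 (12.2 to 1327) in 40 labelled SR1848 and 98.7 (35.6 to 256) in 18 labelled DMSO. Markers of the oocyte (5 of 5 detected) summed to medians of 2867 CPM (622 to 6607), 3719 (1643 to 5555) and 1020 (617 to 1645) in the same order of groups. Of the 6 markers of cumulus and granulosa cells, Amh, Foxl2 and Fshr had a median of 0 in every group and Has2 also in DMSO, and the list summed to medians of 11.6 (1.15 to 48.0), 5.03 (0 to 19.6) and 89.0 CPM (37.1 to 141). Markers of blood and epithelium (Hbb-bs and Ptprc at a median of 0) summed to medians of 183 (5.97 to 493.4), 41.5 (14.8 to 162) and 189 CPM (96.5 to 297), and those of sperm (Prm1 at a median of 0 in every group) to 4.04 (0 to 14.1), 4.68 (0.842 to 21.5) and 0.859 CPM (0 to 2.77). These lists move with the groups, and their part in the Trim43 values was not tested. Fewer transcribing cells and less RNA per cell cannot be told apart in a whole embryo.

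Trim43 transcripts were abundant in solvent embryos and scarce in both groups that received SR1848. Without the 16 and the low libraries, the family sum had a lowest value of 0, a median of 41.7 and a highest value of 548 CPM in 56 libraries labelled SR1848_NR5A2OE. It had 2.68, 14.8 and 136.7 CPM in 40 libraries labelled SR1848, and 1393, 2205 and 3503 CPM in 18 labelled DMSO. The DMSO embryos thus spent a median of 0.220% of their counts on these 3 genes, and the highest embryo of either SR1848 group lay below the lowest of them. Both groups with SR1848 overlapped each other over most of their range: 41 of 56 libraries labelled SR1848_NR5A2OE were above the SR1848 median and 3 were above the highest SR1848 library. With all libraries as labelled the medians were 46.0, 15.4 and 1680 CPM.

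**Figure D1:**
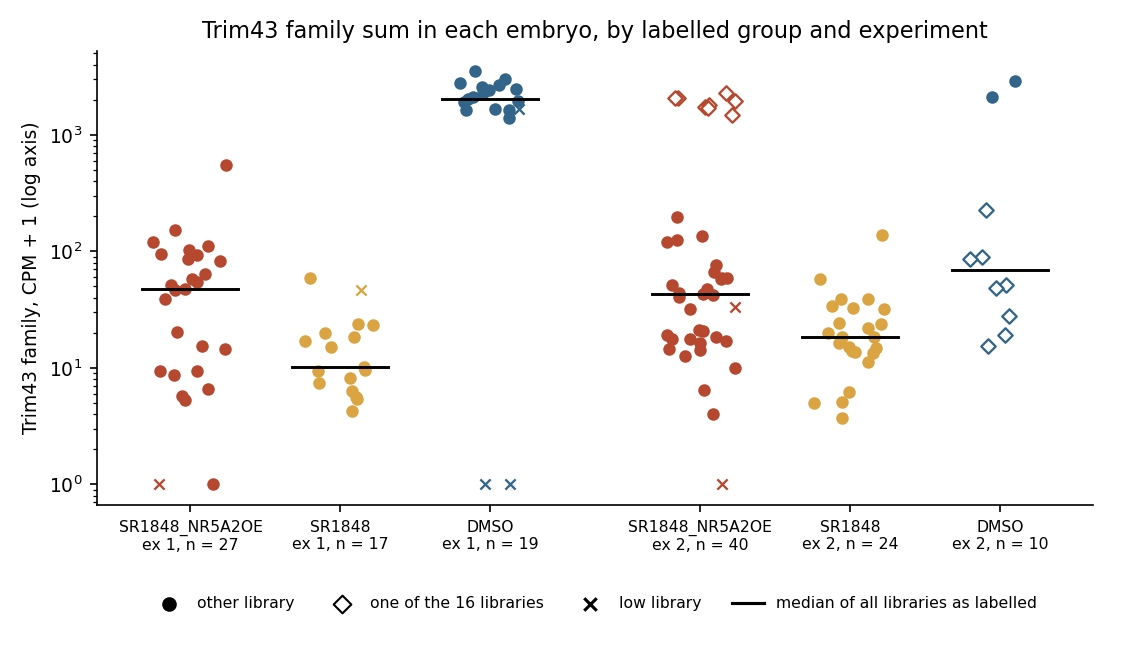
Each point is 1 embryo; the vertical axis is the sum of Trim43a, Trim43b and Trim43c in CPM + 1 on a log axis, and the horizontal axis gives the labelled group and experiment (ex), with a bar at the median of all libraries as labelled. Open diamonds are the 16 libraries of experiment 2 that go against their labels: the 8 labelled SR1848_NR5A2OE lie at 1481 to 2264 CPM among the DMSO embryos of experiment 1, and the 8 labelled DMSO lie at 14.4 to 226 CPM.

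The 16 libraries carried Trim43 levels that go with their GFP and not with their labels. SR1848_NR5A2OE 1 to 8 of experiment 2 had a family sum of 1481 CPM at the lowest, 1868 at the median and 2264 at the highest. DMSO 1 to 8 had 14.4, 49.2 and 226 CPM, while DMSO 9 and 10 of the same experiment had 2093 and 2892 CPM. The Trim43 values of the 2 sets of 8 do not overlap, for the sum as for each gene. How many of all genes show such a gap between these 2 sets was not counted, so it is not shown to be particular to Trim43. Experiment 2 as labelled therefore sets 8 high libraries out of 40 labelled SR1848_NR5A2OE against 2 high libraries out of 10 labelled DMSO.

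Of the single genes, Trim43a had 0, 7.90 and 256 CPM (lowest, median and highest) in the 56 libraries labelled SR1848_NR5A2OE. The same values were 0, 1.86 and 50.8 CPM in the 40 labelled SR1848 and 365, 711 and 1058 CPM in the 18 labelled DMSO. Trim43a was listed at 0 in 5 of the 56 and in 6 of the 40, where a count of 0 allows up to 0.803 and 0.722 CPM (3 counts of the shallowest such library, for counting error only). Trim43b, also the highest copy per length, had 0, 25.2 and 202 CPM in SR1848_NR5A2OE, 0.509, 7.33 and 72.2 CPM in SR1848, and 516, 862 and 1437 CPM in DMSO. Trim43b was found in every SR1848 library and was listed at 0 in 1 library labelled SR1848_NR5A2OE. Trim43c had 0, 4.95 and 90.8 CPM in SR1848_NR5A2OE, 0, 4.38 and 13.8 CPM in SR1848, and 449, 629 and 1058 CPM in DMSO. Its medians in the 2 groups with SR1848 lay closest together, and what set them apart was the upper range: 16 of 56 libraries labelled SR1848_NR5A2OE were above the highest SR1848 library. Of these 16, 10 were among the 14 libraries with under 100 CPM of GFP and 6 among the 42 with at least 100 CPM. All 56 and all 40 lay below the lowest DMSO library for each of the 3 genes. Such a gap without overlap from DMSO was seen for 5.92% of 15102 tested genes in SR1848_NR5A2OE, and for 13.0% in SR1848, the contrast that chose the members.

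**Figure D2:**
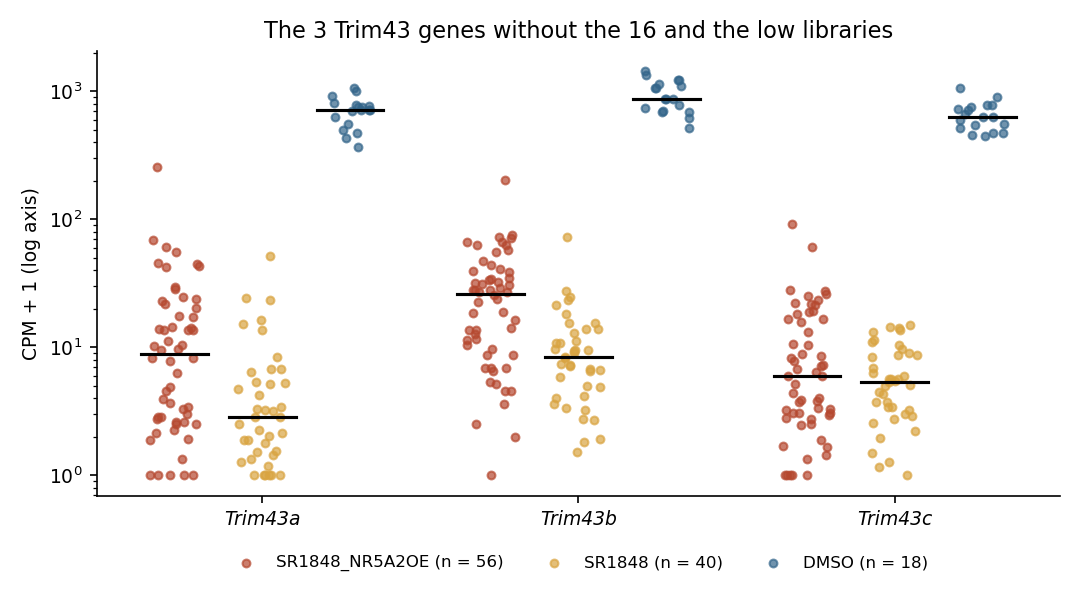
Points are single embryos without the 16 and the low libraries, with CPM + 1 on a log axis for each of the 3 genes and a bar at the median of each group. For all 3 genes the 18 DMSO embryos, at 365 CPM or more, lie above all 56 SR1848_NR5A2OE and all 40 SR1848 embryos, which overlap each other.

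SR1848_NR5A2OE against SR1848 asks how the family differs between embryos labelled with NR5A2 mRNA and inhibitor and those labelled with inhibitor alone. Of the 56 libraries labelled SR1848_NR5A2OE without the 16 and the low ones, 14 had under 100 CPM of GFP. Their family sum had a median of 102 CPM, against 19.6 CPM in the 42 with at least 100 CPM of GFP. As labelled, all 3 members were higher: Trim43a by 3.56 log2 (SE 0.61, adjusted p = 6.84e-07, edgeR quasi-likelihood test with Benjamini-Hochberg adjustment), Trim43b by 3.04 (SE 0.48, adjusted p = 8.83e-08) and Trim43c by 3.29 (SE 0.59, adjusted p = 1.92e-06). The family sum was higher by 3.24 log2 (SE 0.52). In that comparison 29.5% of 14503 tested genes were called higher and 12.9% lower (4284 and 1876 genes), and 9043 and 400 genes when libraries were scaled to maternal transcripts, which put the median of all genes at 0.90 log2 (0.09 in the main test); relative to that median the members were at 4.00, 3.35 and 3.85 log2. The SR1848 embryos also took part in choosing the members, as the low side of that contrast. Without the 16 libraries the differences were smaller. Trim43a was higher by 1.49 log2 (SE 0.45, adjusted p = 0.00562, edgeR) and Trim43b by 1.39 (SE 0.31, adjusted p = 1.90e-04). Trim43c, at 0.81 (SE 0.35, adjusted p = 0.0637, edgeR), no longer passed, and the family sum was at 1.29 (SE 0.33); 21.8% of 14888 genes were called higher there.

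Without the 16 and the low libraries all 3 members were called again, Trim43a at 1.63 log2 (SE 0.44, adjusted p = 0.00108), Trim43b at 1.54 (SE 0.28, adjusted p = 2.43e-06) and Trim43c at 0.90 (SE 0.33, adjusted p = 0.0183, edgeR), beside 29.8% of 15102 genes called higher. The family sum was at 1.44 (SE 0.29). That call of Trim43c was lost when 1 embryo was left out. SR1848_NR5A2OE 21 of experiment 1 had a family sum of 548 CPM (256, 202 and 90.8 CPM of Trim43a, Trim43b and Trim43c), the highest outside DMSO and the 16. Without it Trim43c was at 0.71 log2 (SE 0.31, adjusted p = 0.0513, edgeR), while Trim43a at 1.36 and Trim43b at 1.39 still passed. Leaving out the highest SR1848 embryo, SR1848 15 of experiment 2 with 136.7 CPM, kept all 3 calls, at 1.97, 1.75 and 0.95 log2. SR1848_NR5A2OE 21 of experiment 1 was also 1 of the 14 libraries of its label under 100 CPM of GFP. With all 14 left out Trim43c was at 0.11 log2.

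The 2 experiments were set against each other for the same comparison. Without the 16 and the low libraries, those labelled SR1848_NR5A2OE with under 100 CPM of GFP were 9 of 26 in experiment 1 and 5 of 30 in experiment 2. In experiment 2 without the 16 and the low libraries, Trim43b was higher by 1.15 log2 (SE 0.34, adjusted p = 0.00541, edgeR), with 24.8% of 18329 genes called higher. Trim43a, at 0.88 (SE 0.51, adjusted p = 0.175), and Trim43c, at 0.43 (SE 0.41, adjusted p = 0.456, edgeR), did not pass in experiment 2. In experiment 1, which holds none of the 16 libraries, all 3 were higher, Trim43a by 2.51 (SE 0.74, adjusted p = 0.0111), Trim43b by 1.84 (SE 0.54, adjusted p = 0.0107) and Trim43c by 1.60 (SE 0.57, adjusted p = 0.0377, edgeR), against 13.3% of 13608 genes called higher, with its low libraries kept. Without them the values were 2.81, 2.13 and 1.68 (adjusted p = 0.00106, 2.24e-04 and 0.00685, edgeR), beside 23.6% of 13483 genes called higher. The family sum, without the 16 and the low libraries, had medians of 35.4 CPM (3.05 to 198, 30 libraries) in SR1848_NR5A2OE and 17.3 CPM (2.68 to 136.7, 24 libraries) in SR1848 in experiment 2, and of 48.7 CPM (0 to 548, 26 libraries) and 8.92 CPM (3.27 to 58.3, 16 libraries) in experiment 1. The difference of the 2 experiments was tested as an interaction of group and experiment, and no member passed. As labelled it was 1.56, 1.82 and 2.59 log2 for Trim43a, Trim43b and Trim43c, experiment 2 minus experiment 1 (SE 1.02, 0.79 and 0.94; adjusted p = 0.509, 0.210 and 0.101, edgeR), where 4.59% of genes were called. Without the 16 and the low libraries the sign turned, to -1.94, -0.98 and -1.27 (SE 0.82, 0.54 and 0.64; adjusted p = 0.196, 0.352 and 0.297, edgeR), where 1.60% were called.

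**Figure D3:**
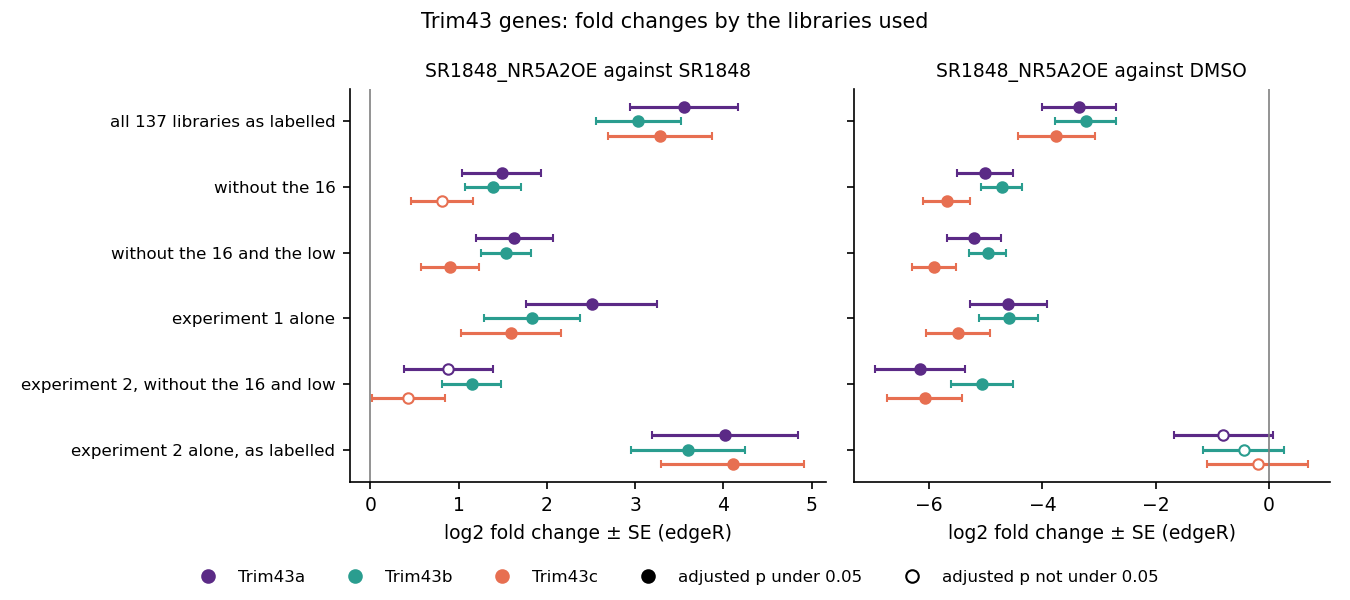
Log2 fold changes with their SE (horizontal axis) of the 3 genes for 6 choices of libraries, in SR1848_NR5A2OE against SR1848 on the left and SR1848_NR5A2OE against DMSO on the right; filled points have an adjusted p under 0.05, and experiment 1 is shown with its low libraries. On the left the values drop to 0.81 to 1.49 without the 16 libraries, and on the right those of experiment 2 as labelled lie at -0.81 to -0.20 while the others lie below -3. Experiment 2 without the 16 and the low libraries holds only 2 DMSO libraries.

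GFP divided the embryos labelled SR1848_NR5A2OE into 2 sets with no library between 71.2 and 1439 CPM of GFP. In the 42 libraries with at least 100 CPM of GFP, which had 1706 to 8612 CPM of Nr5a2, the family sum had a lowest value of 3.05, a median of 19.6 and a highest of 120 CPM. Of these, 28 lay above the SR1848 median and 0 above the highest SR1848 library. In the 14 libraries under 100 CPM of GFP, which had 5.40 to 97.6 CPM of Nr5a2, the sum had 0, 102 and 548 CPM, with 13 above the SR1848 median and 3 above the highest SR1848 library. The library at 0, SR1848_NR5A2OE 2 of experiment 1, had no GFP count, 8.43 CPM of Nr5a2 and 5196129 counts. The set with high GFP and Nr5a2 thus had the lower median of Trim43, and both sets lay below the lowest DMSO library. These sets were drawn after the values were seen. When SR1848_NR5A2OE was limited to the 42 libraries with GFP, Trim43b was higher than in SR1848 by 1.03 log2 (SE 0.26, adjusted p = 5.00e-04, edgeR), beside 24.4% of 14714 genes called higher. Trim43a, at 0.71 (SE 0.40, adjusted p = 0.153), and Trim43c, at 0.11 (SE 0.30, adjusted p = 0.803, edgeR), did not pass.

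Within the embryos with at least 100 CPM of GFP, the level of each member was set against GFP and Nr5a2 in each experiment, which gave 12 relations. Pearson's r ran from -0.26 (Trim43a and GFP in experiment 1, n = 17, permutation p = 0.307, rho = -0.29) to 0.19 (Trim43c and GFP in experiment 2, n = 25, permutation p = 0.352, rho = 0.30). No relation passed, with adjusted p = 0.929 for all 12 Pearson coefficients and 0.982 for all 12 Spearman coefficients, by 2-sided permutation tests. Without the 2 embryos farthest from the median of GFP, these 2 coefficients were -0.31 and 0.21.

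**Figure D4:**
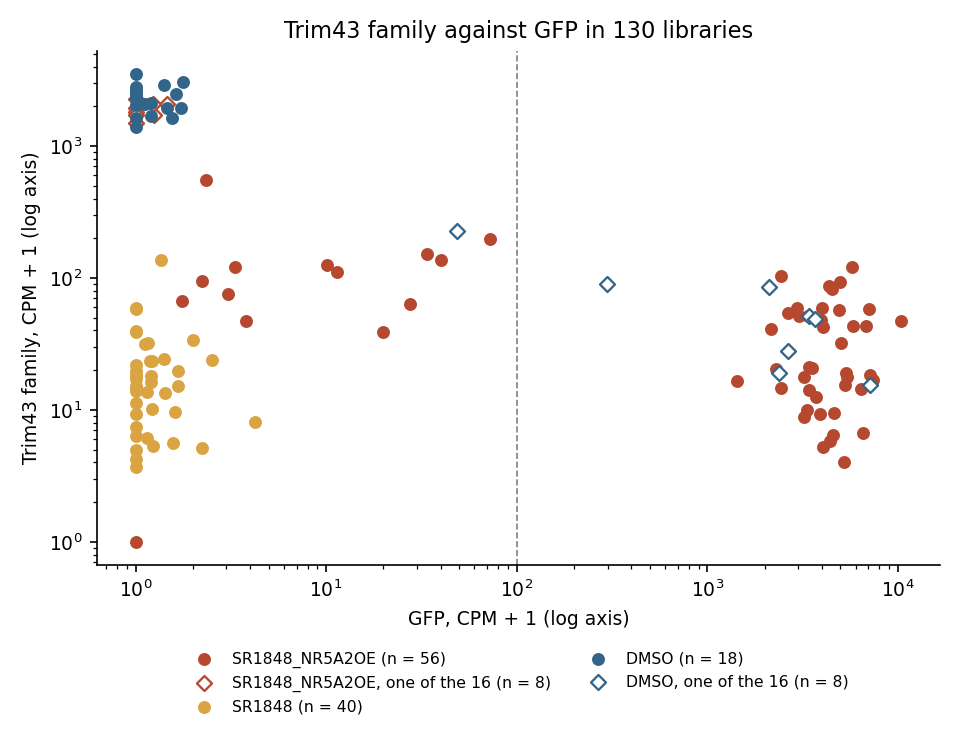
The family sum (vertical axis) against GFP (horizontal axis), both in CPM + 1 on log axes, in 130 libraries without the low ones; open diamonds are the 16 libraries and the dashed line marks 100 CPM of GFP. The 26 libraries at 1393 CPM of Trim43 or more, DMSO embryos and the 8 contrary ones labelled SR1848_NR5A2OE, hold at most 0.771 CPM of GFP, and the 42 SR1848_NR5A2OE libraries to the right of the line lie between 3.05 and 120 CPM of Trim43.

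SR1848_NR5A2OE against DMSO asks how far the embryos of the first label lie from solvent embryos, which also took part in choosing the members, as the high side. As labelled, Trim43a was lower by 3.36 log2 (-3.36, SE 0.66, adjusted p = 2.18e-05), Trim43b was at -3.24 (SE 0.54, adjusted p = 1.96e-06) and Trim43c at -3.75 (SE 0.68, adjusted p = 7.21e-06, edgeR), with the family sum at -3.38 (SE 0.58). Here 25.8% of 14503 genes were called lower and 30.8% higher (3736 and 4474 genes); the split was 6627 and 1047 when scaled to maternal transcripts, with the median of all genes at -0.63 and the members at -3.38, -3.27 and -3.79 relative to it, and 4525 and 3560 with relative log expression. Without the 16 and the low libraries the members were at -5.20 (SE 0.47, adjusted p = 1.34e-18), -4.97 (SE 0.33, adjusted p = 1.57e-27) and -5.91 (SE 0.39, adjusted p = 9.11e-28, edgeR) and the sum at -5.25 (SE 0.34), beside 34.6% of 15102 genes called lower. In experiment 2 as labelled they were at -0.81, -0.45 and -0.20 (SE 0.88, 0.71 and 0.89; adjusted p = 1.00 for each by edgeR). There edgeR called 0 of 15261 genes, with 329 at an unadjusted p under 0.05, and DESeq2 also called 0.

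SR1848 against DMSO is the contrast that singled the members out, and its values describe them. As labelled the fold changes were -6.92 log2 for Trim43a (SE 0.76), -6.28 for Trim43b (SE 0.60), -7.04 for Trim43c (SE 0.73) and -6.62 for the sum (SE 0.65). In that contrast 36.0% of 14503 genes were called lower and 33.1% higher (5218 and 4805 genes), and 9807 and 794 genes when scaled to maternal transcripts. Without the 16 and the low libraries the values were -6.84, -6.50, -6.81 and -6.69.

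The 3 copies were compared with each other per length, as CPM per kilobase of the annotated transcripts, in the 114 libraries. In DMSO the medians were 371 for Trim43a (196 to 544), 437 for Trim43b (258 to 718) and 326 for Trim43c (233 to 546). Trim43b was above Trim43a in 16 of 18 DMSO embryos and above Trim43c in 16, and Trim43a was above Trim43c in 12. The SD over these embryos was 94.7 for Trim43a, 135 for Trim43b and 85.4 for Trim43c. This SD is the spread between embryos, while the counts of embryos compare the copies within each embryo. In SR1848_NR5A2OE the medians were 5.26, 11.4 and 2.69 CPM per kilobase, and Trim43b was the higher one against Trim43a in 42 of 56 embryos and against Trim43c in 50. In SR1848 they were 1.84, 3.27 and 2.30, and Trim43b was above Trim43a in 30 of 40 and above Trim43c in 27. Trim43b led the family in each group. In libraries with at least 100 family counts, Trim43b held a median of 55.6% of the family counts in SR1848_NR5A2OE (26.6% to 89.7%, 33 libraries), 45.9% in SR1848 (15.2% to 63.3%, 13 libraries) and 41.1% in DMSO (35.8% to 45.1%, 18 libraries). Trim43c held 16.6%, 25.5% and 27.1% in the same groups, and Trim43a 24.0%, 24.1% and 29.8%. Across embryos the copies moved together: Pearson's r of log2(CPM + 1) between pairs ran from 0.71 to 0.81 in SR1848_NR5A2OE (n = 56), from 0.47 to 0.61 in SR1848 (n = 40) and from 0.52 to 0.82 in DMSO (n = 18), given as a description since the copies share reads and libraries.

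The estimated counts also divide each gene into transcripts. Trim43b has 2 of full coding length, Trim43b-201 of 2262 bases and Trim43b-202 of 1826 bases; the first reaches 145 bases further at the 5′ end and 288 bases further at the 3′ end. In libraries with at least 20 counts of the gene, Trim43b-201 held a median of 100% of Trim43b in SR1848_NR5A2OE (4.56% to 100%, 49 libraries), 88.7% in SR1848 (14.6% to 100%, 28 libraries) and 37.7% in DMSO (31.2% to 46.8%, 18 libraries). It held over 50% in 46 of 49, 26 of 28 and 0 of 18 of them. The 16 libraries again lay with their GFP: SR1848_NR5A2OE 1 to 8 had a median of 38.2% (28.4% to 49.95%) and DMSO 1 to 8 a median of 100% (66.3% to 100%). Trim43c showed the opposite order, with Trim43c-201 of 1990 bases at 29.6% (0% to 100%, 27 libraries) in SR1848_NR5A2OE, 35.1% (0% to 100%, 22 libraries) in SR1848 and 60.0% (50.3% to 69.3%, 18 libraries) in DMSO; its other transcript, Trim43c-202 of 1836 bases, starts 145 bases further in. Nearly all of Trim43a was in Trim43a-201, with medians of 94.5%, 95.9% and 99.4%. Gene counts were far lower in both groups with SR1848, and their part in these shares was not tested.

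**Figure D5:**
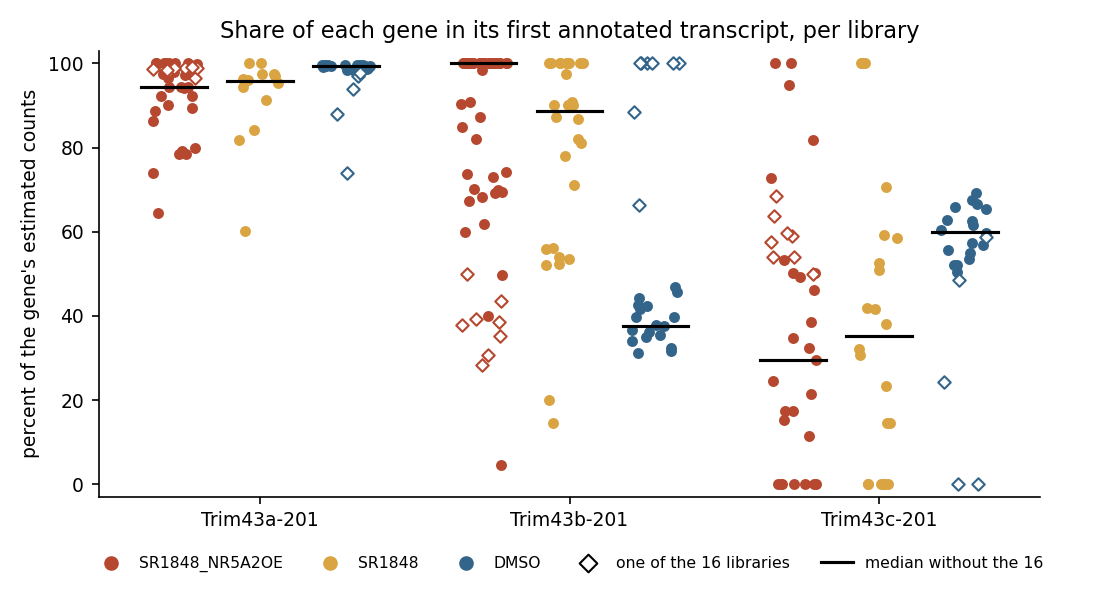
The percentage of each gene's estimated counts in its first annotated transcript (vertical axis), 1 point per library with at least 20 counts of the gene, by group; open diamonds are the 16 libraries and bars are medians without them. Trim43b-201 lies between 31.2% and 46.8% in the 18 DMSO embryos and over 50% in 46 of 49 SR1848_NR5A2OE and 26 of 28 SR1848 embryos.

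The authors' deposited table compares SR1848_NR5A2OE and SR1848 per transcript with DESeq2, with the direction as they coded it, and lists 7 Trim43 transcripts. Of these, 2 have an adjusted p under 0.05 in the authors' deposited table: Trim43b-201 with a log2 fold change of 1.22 (SE 0.278, adjusted p = 6.28e-06) and Trim43a-201 with 6.91e-06 (SE 0.00144, adjusted p = 0.00206). Of the 7, 6 have in the authors' deposited table a log2 fold change under 0.001 in size, as do 6993 of all 14803 entries it calls, so those fold changes cannot be read as sizes.

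Among 63 tested genes of a list of 2-cell transcripts that leaves the family out, 38 were called higher and 3 lower in SR1848_NR5A2OE against SR1848 as labelled, with a median of 1.63 log2 against 0.09 over all genes tested. Over all genes 29.5% were called higher and 12.9% lower there. Without the 16 and the low libraries 40 of the list were higher and 4 lower, with a median of 1.39 against 0.12, beside 29.8% and 14.8% of all genes. In SR1848_NR5A2OE against DMSO without those libraries, 33 were higher and 18 lower (median 1.48, against 0.32 over all genes), and 2 of the 63 had a lower fold change than Trim43b, the least changed member. Over all genes 42.5% were called higher and 34.6% lower in that comparison, so both directions are common there. The low place of the members beside the list only describes them, since they were chosen for lying far below the same DMSO embryos in SR1848. Zscan4f, a zinc finger gene of the 2-cell stage, was higher than in DMSO by 4.22 log2 (SE 0.78, adjusted p = 8.03e-07, edgeR), while Tdpoz2, a BTB-domain gene, was at -5.16 (SE 0.55, adjusted p = 4.82e-15), Ubtfl1, a relative of the nucleolar factor UBTF, at -2.73 (SE 0.32, adjusted p = 1.83e-13) and Slfn4, a schlafen gene, at -2.49 (SE 0.48, adjusted p = 1.69e-06). Against SR1848 in the same libraries Tdpoz2, Ubtfl1 and Slfn4 were higher by 2.68, 2.12 and 2.76, and Zscan4f by 1.25 (adjusted p = 0.0235, edgeR). The homeobox gene Obox5 was lower than in SR1848 (-1.04, adjusted p = 1.19e-09) and higher than in DMSO (1.503, adjusted p = 7.85e-10, edgeR). Btg1, an antiproliferative factor, and Tmem72 were higher than in SR1848 by 2.60 and 1.83 (adjusted p = 8.11e-10 and 3.65e-05, edgeR), and Tmem92 was at 0.26 (adjusted p = 0.294). Against DMSO, Btg1, Tmem72 and Tmem92 were at 0.10, -1.27 and 0.03 (adjusted p = 0.846, 0.00607 and 0.930, edgeR).

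Of 66 other Trim genes, 42 were tested without the 16 and the low libraries. In SR1848_NR5A2OE against SR1848, 11 were called higher and 10 lower, with a median of 0.01 against 0.12 over all genes, of which 29.8% were called higher and 14.8% lower. Against DMSO 18 were higher and 10 lower, beside 42.5% and 34.6% of all genes. None of the 42 had a fold change against DMSO below those of the Trim43 genes. The Trim43 genes were chosen for lying far below the same DMSO embryos in SR1848, so this rank only describes them. Trim6, a ubiquitin ligase, was the one named gene of these Trim genes with the order of groups of the Trim43 family. It was higher than in SR1848 by 1.92 (SE 0.20, adjusted p = 1.75e-14) and lower than in DMSO at -2.29 (SE 0.24, adjusted p = 9.77e-16, edgeR). Tdpoz2, Ubtfl1, Slfn4 and Tmem72 of the 2-cell list had that order too. Trim12a and Trim52 were higher than in SR1848 by 2.60 and 2.92 and higher than in DMSO by 3.62 and 2.31 (adjusted p = 4.04e-05 or lower by edgeR for each). Trim60, Trim61 and Trim75 were lower than in SR1848 (-0.99, -0.76 and -0.39) and higher than in DMSO (2.14, 1.95 and 1.96; adjusted p = 6.61e-04 or lower by edgeR for each). Trim27 was lower than in SR1848 (-0.87, adjusted p = 1.03e-06) with 0.06 against DMSO (adjusted p = 0.814), and Trim24, a chromatin reader, was at -0.04 against SR1848 (adjusted p = 0.764) and at 1.47 against DMSO (adjusted p = 9.75e-17, edgeR).

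Over all libraries, the genes whose log2 CPM ran most like the family sum were Set, a histone chaperone (Pearson's r = 0.95), Wdr45b of autophagy (0.94), the RNA helicase Ddx20 (0.92), the snoRNP protein Nop58 (0.92) and the ribosomal protein gene Rpl37a (0.91), out of 8602 genes ranked. Over the 27 libraries labelled SR1848_NR5A2OE of experiment 1 they were Set (0.96), Imp3 of the U3 snoRNP (0.94), the decoy receptor gene Tnfrsf22 (0.94), the nucleolar factor gene Abt1 (0.94) and Rpl23 (0.93). Zscan4d had r = 0.30 over all libraries and 0.72 over the 27, and Nr5a2 had -0.01 and -0.18. Without the low libraries Set stayed first in both rankings, while Wdr45b, Ddx20, Nop58 and Rpl37a stood at ranks 4, 7, 12 and 8 and Hmmr (0.94) and Pdia3 (0.92) at ranks 2 and 5; over the SR1848_NR5A2OE libraries of experiment 1, Imp3, Tnfrsf22, Abt1 and Rpl23 stood at ranks 4, 5, 3 and 9. Hmmr and Pdia3 are named for these ranks after their values were seen. These coefficients are descriptions over libraries that share their depth and their groups.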

How the data were processed

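The authors deposited estimated counts per transcript for all libraries, made with kallisto 0.46.1 after Trim Galore 0.6.2 per the submitters' processing notes, which also name bcl2fastq, R 3.5.1 and the builds mm10 and hg19. Counts per transcript were summed by gene symbol (GENCODE M21) for 116682 of 119358 entries, and 892 more through the authors' table; 1779 entries with 0.656% of the counts had no gene name. Summed counts were rounded to whole numbers and tested with edgeR 4.0.16 (R 4.3.3, limma 3.58.1): TMM scaling, the filterByExpr filter, a model of group and experiment over all libraries, the quasi-likelihood test and Benjamini-Hochberg adjustment over all genes tested, called at 0.05. The SE of a fold change is its size divided by the square root of F. The authors' deposited table was made with DESeq2 1.32.0 per the submitters' processing notes and holds a mean signal, log2 fold changes and p-values per transcript; the log2 fold changes and p-values printed from it are the authors'. CPM are counts scaled to a common library total. A library was low with a total below 1/5, or detected genes below 1/2, of the median library. The 16 libraries were set apart by number, as 1 to 8 of DMSO and of SR1848_NR5A2OE in experiment 2, with no cut applied to each library. The reason was GFP and Nr5a2, not Trim43. Intervals of depth cover counting error only. The members and lists were chosen with earlier results of these data known, and named list genes are the 4 with the smallest p for SR1848_NR5A2OE against SR1848 and the 4 with the highest mean level, fewer where these coincide. Same-numbered libraries were checked for pairing. The code was tested on simulated data. Alternatives were other scalings, no filter, DESeq2 1.42.0, each experiment alone, a replicate block and libraries left out.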

Additional observations from a re-analysis of the deposited data

How the results depend on the processing

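Of the 63 alternative values for the 3 genes and their sum in SR1848_NR5A2OE against SR1848, 56 kept their direction and their side of the threshold or, for the sum, their size. The sum has no p, and a shift below 2.42 log2, the pooled SD between embryos, counted as kept. This is a wide margin: sums from 4.44 (scaled to maternal transcripts) down to 0.93 (experiment 2 without the 16 and the low libraries) counted as kept, against 3.24 in the main test. Trim43c lost its call without the 16 libraries (0.81 log2) and, in alternatives chosen after seeing the data, without the highest SR1848_NR5A2OE library as well (0.71), in experiment 2 without the 16 and the low libraries (0.43) and with only SR1848_NR5A2OE libraries of at least 100 CPM of GFP (0.11). Trim43a lost its call in the last 2 of these (0.88 and 0.71), where the family sum stood at 0.79 against SR1848 and -6.02 against DMSO for the GFP setting. Against DMSO in experiment 2 as labelled, SR1848_NR5A2OE lost the calls of all members (-0.81, -0.45 and -0.20, sum -0.50), and SR1848 stood at -4.05 for Trim43b and -4.31 for Trim43c. The difference between the experiments reversed to -1.73, -0.78 and -1.25 without the 16 libraries and to -1.94, -0.98 and -1.27 without the low ones too. The number of genes called in SR1848_NR5A2OE against SR1848 was 9443 scaled to maternal transcripts, 11715 with no filter and 2507 in experiment 1, against 6160 in the main test; against DMSO it was 0 in experiment 2. In SR1848 against DMSO it was 15137 with no filter and 3704 in experiment 2, against 10023. The cause was not tested. Same-numbered libraries did not pair: in experiment 1 the correlation was over 0.1 in 4 of 17 pairs of SR1848_NR5A2OE and SR1848 and in 1 of 19 of SR1848_NR5A2OE and DMSO, and in experiment 2 in 5 of 24 and 1 of 10, where the median of the last was -0.376 against 0.050 over all pairs. These correlations are of deviations from the mean of the labelled group. In the last set the pairs numbered 1 to 8 join libraries of the 16, so that median cannot speak on pairing. With a replicate block the members were at 2.90, 2.36 and 1.97 against SR1848 and at -4.95, -3.89 and -4.80 against DMSO, and no call changed. Depth limits values near 0, where a count of 0 allows up to 0.803 CPM in libraries that are not low and up to 29.8 CPM in the shallowest low one.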
